A study of Mus musculus with 20 samples.

Results

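Among 8 livers of mice on a high-fat diet (HFD), 4 carried much more mRNA of serum amyloid A1 (Saa1) than the other 4, and the contrast between them is described here across all other genes. The 8 are those of the 10 HFD libraries of the series, which has 20 in all, in which genes of the mitochondrial chromosome held under 10% of the counts. High and low livers were chosen by the measured level of Saa1 itself, at 2000 CPM (counts per 1000000) of the counts outside that chromosome. HFD 3, 4, 5 and 7 are the low livers, with 738, 733, 779 and 1005 CPM. HFD 6, 8, 9 and 10 are the high livers, with 6058, 5253, 6278 and 18779 CPM. The libraries nearest to the limit were HFD 7 below it and HFD 8 above it. These Saa1 values chose the classes and are a description with no test. HFD 1 and HFD 2 were left out because 75.6% and 94.4% of their counts were mitochondrial, and their Saa1 values on the same scale were 43.2 and 392 CPM.

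All 8 livers came from C57BL/6 mice with the genotype label WT. They were fed for 12 weeks a diet whose fat content is 60%, the rest being carbohydrate and protein at 20% each. Total RNA was extracted with Trizol from liver that had been kept in liquid nitrogen, and was sequenced. The labels give no age and no sex, and do not say whether each library is a separate mouse. The p-values therefore measure the spread between these libraries, which may be technical. The study's design text speaks of 3 groups on the HFD, whereas the labels give 1, and the hour of tissue collection is not given in the sources used here. The Saa1 class and any unlabelled difference in treatment, handling or time of collection cannot be told apart. Every p below is read as association with that class among these livers, or with the Saa1 level where this is a continuous term.

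Totals ran from 40966839 to 49482416 counts in the low livers and from 50414108 to 90033879 in the high livers. Every high library was deeper than every low one (two-sided exact permutation test over libraries, p = 0.0286, the smallest that 4 against 4 allows). Mitochondrial genes held 1.34% to 2.54% of the counts. HFD 6 stood apart, with correlations of log2 CPM to the other 7 libraries of 0.877 to 0.905, and HFD 10 stood next, at 0.951 to 0.966 with the remaining 6. The 15 other pairs reached 0.969 to 0.988. No pair was as alike as sampling noise would make it: a chi-square per gene near 1 would be, and the smallest, of HFD 4 with HFD 5, was 14.1. The liver label was checked against 10 hepatocyte markers, all of them tested and none at 0. As CPM of library totals they summed to 114002 to 129917 in the low livers and 79704 to 101020 in the high livers. The highest of the high livers was HFD 10, whose TMM scaling factor was 0.796, against at least 0.976 in the others. The lack of overlap therefore holds for library totals only. Much of the sum was Alb, and the median log2 difference of the 10 genes was -0.15, against 0.04 over all genes. Each of the 8 libraries held counts of 4 Y-linked genes (Uty, Kdm5d, Eif2s3y and Ddx3y), and Xist was counted 45 times in HFD 10 and at 0 elsewhere. Apoe, normally abundant in mouse liver, measured 13784 CPM in HFD 6 but 21.3 to 107 CPM in the other 7, and whether the genotype label WT holds for each liver was not tested. The calls are therefore given with and without HFD 6.

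Serum amyloid A proteins are apolipoproteins that hepatocytes secrete in the acute phase response, in which interleukin 6 and interleukin 1 reach the liver and act through STAT3, NF-kappaB and C/EBP factors to change the secreted plasma proteins. The liver also runs a circadian clock. In it ARNTL (BMAL1), with CLOCK or NPAS2, drives the Per and Cry repressors and Dbp through E-boxes, DBP, TEF and HLF against NFIL3 act on D-boxes, and ROR activators against REV-ERB repressors act on RORE sites such as those of Arntl. In mouse liver Arntl and Npas2 peak at about the opposite time of day to Dbp, Tef and Per3.

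With edgeR's quasi-likelihood test, 5 of 15175 genes passed an adjusted p under 0.05 between high and low livers (0.0329%), 1 of them higher (0.00659%) and 4 lower (0.0264%) in the high livers. Usp2, Per3, Wee1 and Arntl of these 5 are clock genes or clock-controlled genes, and the fifth was Pcsk4. They lie on 4 chromosomes of GRCm38: Usp2 (ENSMUSG00000032010) at chr9:44067021-44095627, Per3 (ENSMUSG00000028957) at chr4:151003652-151044665, Arntl (ENSMUSG00000055116) at chr7:113207465-113314126, Wee1 (ENSMUSG00000031016) at chr7:110122046-110143286 and Pcsk4 (ENSMUSG00000020131) at chr10:80321283-80329498. At an unadjusted p under 0.05 there were 1364 genes. In 530 genes (3.49%) all 4 high livers lay above all 4 low ones, and in 569 (3.75%) all lay below. Without HFD 6 the test called 69 of 15386 genes (0.448%), with 37 higher (0.24%) and 32 lower (0.208%) in the remaining high livers, and without both HFD 6 and HFD 10 it called 146 of 15733 (0.928%). DESeq2 on all 8 libraries called 222 genes and limma voom 2. Without any one of HFD 3, 4, 5, 7, 8 or 9 edgeR called none, with 755 to 2050 genes at an unadjusted p under 0.05. Without HFD 10 it called 4, of which 3 were among the 5. With counts thinned to 40966839 per library 3 genes were called, all among the 5.

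**Figure D1:**
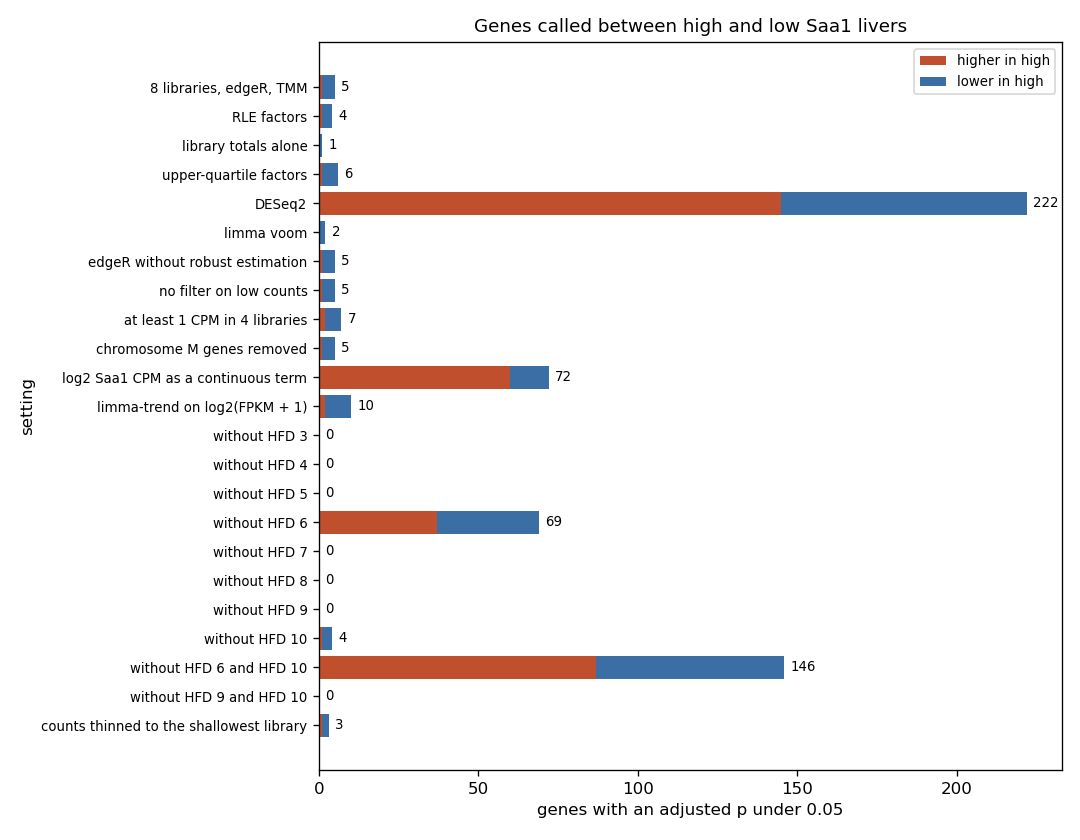
Number of genes with an adjusted p under 0.05 between high and low Saa1 livers (x axis) under each setting (y axis), split into genes higher and lower in the high livers. The 8 libraries give a count of 5, which becomes 69 if HFD 6 is omitted, 146 if HFD 10 is omitted as well, and 222 in DESeq2.

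The serum amyloid family is given first, as values only, since Saa1 set the classes and Saa2 and Saa3 are its paralogs. Values of single genes from here on are CPM scaled by TMM factors, whereas sums of markers are CPM of library totals alone. Differences are log2, high minus low, ± SE. The CPM are listed for HFD 3, 4, 5 and 7 (low) and then for HFD 6, 8, 9 and 10 (high), 4 libraries per class. Saa2, which like Saa1 is made by hepatocytes and carried on high-density lipoprotein, measured 433, 455, 462 and 448 CPM in the low and 5954, 4121, 3877 and 27631 CPM in the high livers. Its high livers lay far above its low livers, and HFD 10 far above the other 3. Saa3, made in mice by macrophages and fat cells as well as by liver, measured 103, 132, 123 and 120.3 CPM in the low and 628, 134, 99.6 and 56.3 CPM in the high livers. Here the classes overlapped: HFD 6 was highest, HFD 8 was level with HFD 4, and HFD 9 and HFD 10 were the lowest of all 8.

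Saa1 and Saa2 lie side by side on mouse chromosome 7, and their promoters are printed to show how alike the neighbouring genes are. The windows run from 250 bases before to 50 bases after the start of the gene (RefSeq, GRCm38.p6), at chr7:46742931-46743230 on the minus strand for Saa1 and chr7:46751583-46751882 on the plus strand for Saa2. Capitals mark bases that differ between them or face a gap.
Saa1: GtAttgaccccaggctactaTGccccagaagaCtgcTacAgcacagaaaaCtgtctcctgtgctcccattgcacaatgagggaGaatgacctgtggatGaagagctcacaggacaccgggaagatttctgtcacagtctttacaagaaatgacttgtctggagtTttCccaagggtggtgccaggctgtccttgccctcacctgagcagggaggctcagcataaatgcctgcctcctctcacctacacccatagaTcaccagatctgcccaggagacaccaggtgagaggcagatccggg
Saa2: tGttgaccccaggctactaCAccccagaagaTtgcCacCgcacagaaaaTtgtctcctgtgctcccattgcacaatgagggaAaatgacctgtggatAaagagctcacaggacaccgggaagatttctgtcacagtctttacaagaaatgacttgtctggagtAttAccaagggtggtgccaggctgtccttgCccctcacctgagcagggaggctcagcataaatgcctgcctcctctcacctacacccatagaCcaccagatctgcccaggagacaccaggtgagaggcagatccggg
Of 299 aligned bases 287 were identical (95.99%). Within the transcripts, 31.12% of the 50-base words of Saa1 also occur in Saa2 and 0.36% in Saa3. How reads common to both were counted is not given in the sources used here, so the separate levels of Saa1 and Saa2 are uncertain, whereas Saa3 shares little sequence with Saa1. Other named genes with close copies, such as Orm1 and Orm2, the globins, Cyp2c40 and Cyp2c69, carry the same uncertainty.

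The acute phase list holds 34 genes, of which 32 were tested and none was called, against 0.0329% of all genes. In 17 of the 32 all high livers lay above all low ones and in 2 all lay below, beside 3.49% and 3.75% of all genes. The median log2 difference was 1.42, against 0.04 over all genes, and 1.31 without HFD 6. With log2 Saa1 as a continuous term in place of the classes, edgeR called 72 of 15175 genes. Orm1, Orm2, Apcs, Lcn2, Hp, Hpx, Fgb, Mt1 and Serpina3n were among them, and Alb was not. Since genes of this list are induced together with Saa1, nothing is read from the counts or from these calls. Without both HFD 6 and HFD 10, 14 members were called higher and 1 lower in the remaining HFD 8 and HFD 9, against 0.553% and 0.375% of all genes. Nothing is read from this count either.

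Orm1 and Orm2 encode orosomucoid, a plasma carrier of drugs and lipids. Orm1 measured 993, 1298, 1236 and 1474 CPM in the low and 3606, 2699.9, 3111 and 8779 CPM in the high livers. Orm2 measured 93.7, 116, 120.2 and 214 CPM in the low and 528, 879, 889 and 5324 CPM in the high livers. In both genes all 4 high livers were above all 4 low ones, HFD 10 was the highest and HFD 7 was the highest of the low livers. The log2 difference was 1.86 ± 0.40, adjusted p = 0.261 for Orm1 and 3.81 ± 0.78, adjusted p = 0.261 for Orm2, so neither passed the test. Apcs, serum amyloid P component, a pentraxin and a main acute phase protein of the mouse, measured 123, 125, 122 and 199.6 CPM in the low and 851, 492, 623 and 3268 CPM in the high livers. Its log2 difference was 3.20 ± 0.63, adjusted p = 0.242, with the same lack of overlap between the classes. Lcn2, lipocalin 2, which binds bacterial siderophores and is made by hepatocytes and by neutrophils, measured 219, 249.7, 247 and 329 CPM in the low and 631, 814, 814 and 3389.8 CPM in the high livers. It showed the same order (log2 difference 2.43 ± 0.55, adjusted p = 0.301).

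The abundant plasma proteins differed by less. Hp (haptoglobin, which binds free haemoglobin) measured 5378, 7085, 6574 and 8037 CPM in the low and 19927, 10618, 12709 and 32478 CPM in the high livers. Fgb, the fibrinogen beta chain, measured 6152, 5871, 5716 and 8054 CPM in the low and 20537, 11237, 12050.0 and 24713 CPM in the high livers. For both the lowest high liver was HFD 8 and the classes did not overlap, with log2 differences of 1.48 ± 0.38, adjusted p = 0.398 for Hp and 1.41 ± 0.32, adjusted p = 0.301 for Fgb. Hpx, hemopexin, which binds free haem, had a log2 difference of 1.25 ± 0.35, adjusted p = 0.427, and Serpina3n, a serine protease inhibitor, 1.89 ± 0.42, adjusted p = 0.297. Mt1, metallothionein 1, a zinc-binding protein, measured 30.7, 29.9, 38.3 and 33.1 CPM in the low and 519, 166, 91.3 and 1355 CPM in the high livers. Its high livers were spread over more than a factor of 10, with HFD 9 lowest (log2 difference 4.01 ± 0.80, adjusted p = 0.244). Alb, serum albumin and a negative acute phase protein, measured 85196, 82699, 73490.0 and 83215 CPM in the low and 33210.0, 48417, 42489 and 68361 CPM in the high livers. All its high livers lay below its low ones, with a log2 difference of -0.75 ± 0.29, adjusted p = 0.532.

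**Figure D2:**
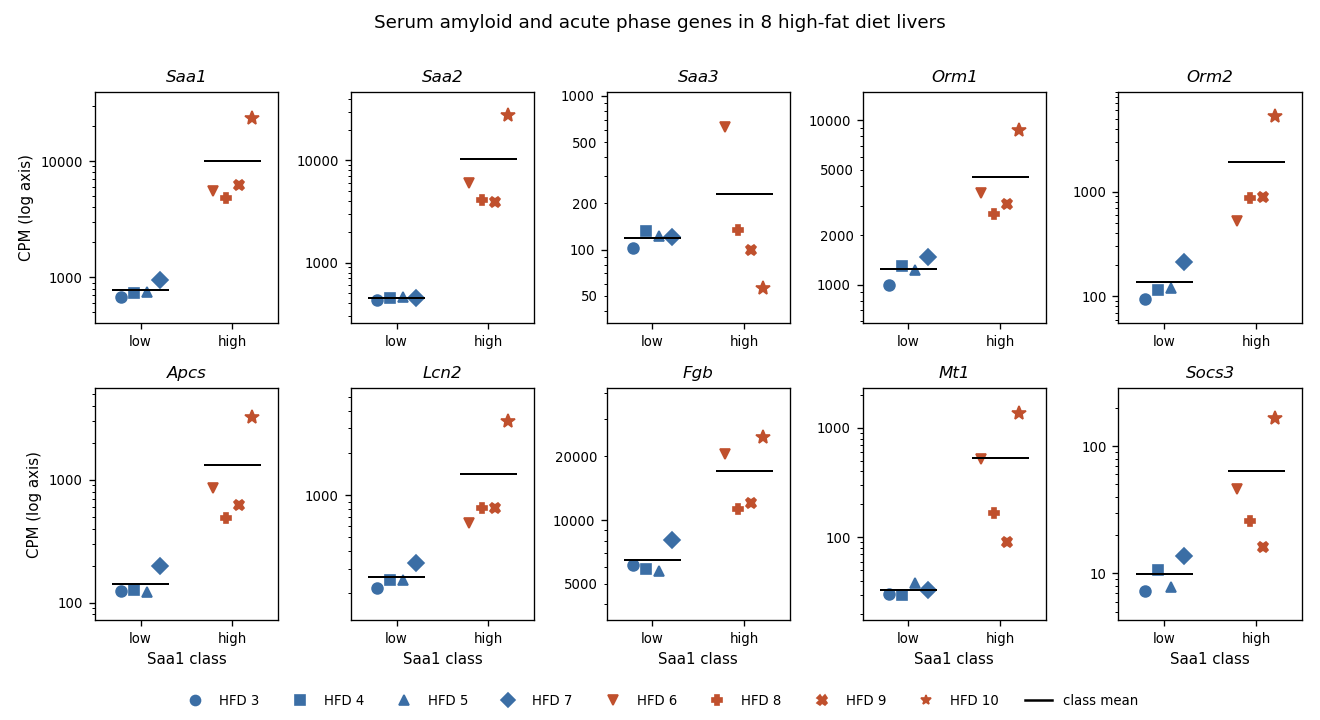
CPM of 10 serum amyloid, acute phase and cytokine response genes (y axes, logarithmic) in the low and the high Saa1 livers (x axes), 1 symbol per library, with a line at the class mean. Saa2, Orm1, Orm2, Apcs, Lcn2, Fgb, Mt1 and Socs3 do not overlap between the classes, Saa3 does, and HFD 10 is the highest in every gene except Saa3.

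Upstream of these genes, 33 members of the IL6, STAT3 and NF-kappaB list were tested and none was called. All high livers lay above all low ones in 4 (3.49% of all genes) and below in 1 (3.75% of all genes), and the median log2 difference was 0.24. Socs3, the feedback inhibitor that STAT3 induces, measured 7.32, 10.6, 7.82 and 13.8 CPM in the low and 45.9, 25.8, 16.1 and 168 CPM in the high livers. The classes did not overlap, but HFD 9 lay close to HFD 7 and HFD 10 was far above the rest (log2 difference 2.69 ± 0.70, adjusted p = 0.4). Il1r1, the signalling receptor of interleukin 1, measured 38.6, 35.7, 37.0 and 46.5 CPM in the low and 155, 85.8, 58.9 and 192 CPM in the high livers. It too did not overlap (log2 difference 1.64 ± 0.34, adjusted p = 0.261). Stat3 itself measured 142, 152, 145 and 148 CPM in the low and 427, 153, 168 and 294 CPM in the high livers. HFD 8 was within a few percent of HFD 4, and HFD 6 was the highest (log2 difference 0.83 ± 0.31, adjusted p = 0.521). Il6 was too low to be tested. In the edgeR fit with log2 Saa1 as a continuous term, Socs3 (adjusted p = 0.0293) and Il1r1 (adjusted p = 0.0389) were called and Stat3 (adjusted p = 0.443) was not. That term holds the Saa1 values that set the classes, and nothing is read from these calls.

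Of 26 complement genes none was called, and in 4 all high livers lay above the low ones, beside 3.49% of all genes. C3, the central component of complement, measured 6661, 8369, 7370.4 and 8727 CPM in the low and 22953, 11253, 13425 and 26078 CPM in the high livers, without overlap (log2 difference 1.24 ± 0.32, adjusted p = 0.4). Iron genes behaved unevenly. Hamp, which encodes the iron hormone hepcidin and is a known target of STAT3, measured 109, 154, 149 and 453 CPM in the low and 256, 319, 371 and 15.8 CPM in the high livers. Its classes overlapped, with HFD 7 of the low livers the highest of all and HFD 10 the lowest (log2 difference 0.15 ± 0.79, adjusted p = 0.953). Hamp2, its neighbouring copy, measured 4.92, 5.48, 4.87 and 3.37 CPM in the low and 0.131, 1.30, 1.54 and 0.599 CPM in the high livers. All its high livers were below its low ones (log2 difference -2.37 ± 0.60, adjusted p = 0.395), and it was called lower when HFD 6 was left out (-2.01 ± 0.33, adjusted p = 0.039).

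The RefSeq promoter windows were searched on both strands for a STAT3 and a C/EBP word, and windows of 25 of the list's genes were found. The STAT3 word TTCNNNGAA was in windows of 7 genes (Fga, Fgb, Apcs, Itih4, Serpina3g, Hamp and Steap4), beside 8.298% of all 32851 windows. The C/EBP word TTGCGCAA was in that of Orm2 (0.1826% of all windows). Of the clock words, also searched, the RORE word TAGGTCA was in the window of Itih4 (2.606% of all windows). The D-box word TTATGTAA was in that of Alb (0.9376%), and no window of the list held the E-box CACGTG (7.15%). These matches are descriptions of short windows, and nothing is drawn from them about the factors.

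The circadian clock list gave 4 of the 5 calls. Of its 25 genes, all tested, 1 was called higher and 3 lower in the high livers, against 0.00659% and 0.0264% of all genes. Without overlap between the classes there were 3 above (3.49% of all genes) and 10 below (3.75% of all genes), and the median log2 difference was -0.35 (-0.28 without HFD 6). Without HFD 6, 2 were called higher (Arntl and Nfil3) and 6 lower (Per3, Dbp, Tef, Bhlhe41, Usp2 and Wee1), against 0.24% and 0.208% of all genes.

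These promoter windows are printed because they carry the clock motifs searched and belong to genes on opposite sides of the contrast: Arntl and Nfil3, above in all high livers, and Per3, below in all. They are from RefSeq, GRCm38.p6: Arntl at chr7:113207261-113207560 (plus strand, the later of its 2 annotated starts), Nfil3 at chr13:52980990-52981289 (minus strand) and Per3 at chr4:151044616-151044915 (minus strand). Capitals mark the RORE word TAGGTCA or its reverse complement in Arntl and Nfil3, and the D-box word TTATGTAA in Per3.
Arntl: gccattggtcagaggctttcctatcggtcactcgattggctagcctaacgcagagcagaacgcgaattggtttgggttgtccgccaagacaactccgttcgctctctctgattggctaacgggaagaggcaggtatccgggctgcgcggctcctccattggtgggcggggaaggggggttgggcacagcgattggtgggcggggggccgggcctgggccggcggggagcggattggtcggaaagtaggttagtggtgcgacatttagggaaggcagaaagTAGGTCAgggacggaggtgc
Nfil3: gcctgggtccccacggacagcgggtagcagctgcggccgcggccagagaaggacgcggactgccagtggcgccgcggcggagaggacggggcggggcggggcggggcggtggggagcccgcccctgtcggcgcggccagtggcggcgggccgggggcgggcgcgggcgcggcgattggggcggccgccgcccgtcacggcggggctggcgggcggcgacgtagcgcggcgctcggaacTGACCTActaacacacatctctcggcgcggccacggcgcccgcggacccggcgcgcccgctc
Per3: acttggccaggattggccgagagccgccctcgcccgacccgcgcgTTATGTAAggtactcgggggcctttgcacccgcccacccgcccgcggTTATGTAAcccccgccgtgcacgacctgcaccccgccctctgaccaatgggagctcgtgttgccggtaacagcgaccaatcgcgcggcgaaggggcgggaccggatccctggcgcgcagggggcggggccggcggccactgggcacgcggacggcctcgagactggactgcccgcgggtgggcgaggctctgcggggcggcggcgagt
The RORE word lies 30 bases after the start in Arntl and 12 bases before it in Nfil3. The D-box word occurs at 205 and at 158 bases before the start of Per3. Windows were found for 21 of the clock list's genes. The RORE word was in those 2 genes only (2.606% of all windows), the D-box word in Per3 only (0.9376%), and the E-box CACGTG in 7 genes (7.15%), which were Per1, Cry1, Tef, Bhlhe41, Ciart, Ppp1r3c and Lonrf3. None of the words printed in capitals overlaps another of the motifs searched. The windows of Usp2, of Dbp and of the earlier start of Arntl held no E-box, D-box or RORE word and are not printed. The printed windows were chosen for having a match, and nothing is drawn from them about the factors or the direction of the genes.

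On the activating side, Arntl, the obligate partner of CLOCK and NPAS2, measured 4.06, 3.70, 4.20 and 4.09 CPM in the low and 25.5, 16.8, 15.6 and 11.8 CPM in the high livers. The 4 low livers were close together and all high livers were far above them. Arntl was called higher (2.12 ± 0.24, adjusted p = 0.0472), and without HFD 6 the log2 difference was 1.87 ± 0.15, adjusted p = 0.00168. Npas2, which can stand in for CLOCK, measured 0.377, 0.5002, 0.472 and 0.740 CPM in the low and 1.16, 2.38, 1.79 and 1.36 CPM in the high livers. It lay at low levels, with no overlap, and did not pass the test (log2 difference 1.67 ± 0.34, adjusted p = 0.257). Clock measured 17.97, 11.5, 13.6 and 9.91 CPM in the low and 25.2, 21.8, 13.3 and 13.7 CPM in the high livers, with overlapping classes (log2 difference 0.48 ± 0.27, adjusted p = 0.598).

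Nfil3, the repressor that competes with DBP and TEF at D-boxes, measured 20.5, 22.9, 24.1 and 20.3 CPM in the low and 310.5, 52.8, 48.9 and 83.8 CPM in the high livers. All high livers were above all low ones, and HFD 6 was several times the other 3 (log2 difference 2.498 ± 0.59, adjusted p = 0.326). It was called without HFD 6, at 1.49 ± 0.18, adjusted p = 0.013. Dbp, the D-box activator, measured 58.6, 67.9, 56.0 and 57.5 CPM in the low and 0.597, 5.23, 10.8 and 3.31 CPM in the high livers. The low livers were close together, and every high liver was several times lower, HFD 6 the most (log2 difference -3.58 ± 0.69, adjusted p = 0.23). Dbp missed the threshold with all 8 libraries and was called lower without HFD 6 (-3.21 ± 0.39, adjusted p = 0.0244). Tef, another D-box activator, measured 135, 143, 132 and 117 CPM in the low and 81.2, 40.1, 56.6 and 55.1 CPM in the high livers. Its classes did not overlap, and it was called lower without HFD 6 (-1.38 ± 0.14, adjusted p = 0.00406) but not with all libraries (-1.17 ± 0.21, adjusted p = 0.183).

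Among the repressors, Per3, a period gene that is not required for rhythm in mice, measured 8.95, 7.38, 8.10 and 7.22 CPM in the low and 1.64, 1.60, 0.999 and 0.898 CPM in the high livers. All high livers were below all low ones with a wide gap, and Per3 was called lower (-2.63 ± 0.25, adjusted p = 0.0215). Per2, a core repressor, measured 12.97, 11.6, 9.64 and 8.78 CPM in the low and 6.06, 4.73, 5.12 and 6.86 CPM in the high livers. It too showed no overlap, with a smaller difference that was not called (-0.92 ± 0.19, adjusted p = 0.261). Per1, which glucocorticoids and other signals also induce, measured 14.6, 14.7, 11.9 and 10.1 CPM in the low and 45.6, 4.39, 7.84 and 19.4 CPM in the high livers. Its classes overlapped, HFD 6 being the highest and HFD 8 the lowest of all (log2 difference 0.59 ± 0.62, adjusted p = 0.746, and -0.28 ± 0.46, adjusted p = 0.859 without HFD 6). Cry1 measured 5.90, 6.30, 6.09 and 7.09 CPM in the low and 15.9, 11.9, 13.1 and 6.23 CPM in the high livers, with HFD 10 inside the low range (log2 difference 0.89 ± 0.27, adjusted p = 0.437).

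Bhlhe41 (DEC2), a repressor at E-boxes, measured 5.65, 5.55, 4.75 and 5.76 CPM in the low and 0.560, 2.12, 1.88 and 0.958 CPM in the high livers. Every high liver was below every low one, and it was called lower without HFD 6 (-1.72 ± 0.27, adjusted p = 0.0298) but not with it (-1.97 ± 0.39, adjusted p = 0.244). Ciart, a repressor of CLOCK and ARNTL, measured 2.93, 2.60, 1.46 and 2.96 CPM in the low and 1.18, 0.0930, 0.244 and 0.614 CPM in the high livers, again without overlap (log2 difference -2.23 ± 0.66, adjusted p = 0.436). Nr1d1, which encodes REV-ERB alpha, the repressor at RORE sites, measured 87.7, 111, 92.7 and 89.8 CPM in the low and 50.8, 55.5, 86.0 and 45.6 CPM in the high livers. All high livers were below the low ones, HFD 9 only just (log2 difference -0.68 ± 0.21, adjusted p = 0.445).

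The other clock-controlled calls were Usp2 and Wee1. Usp2, a deubiquitinase with rhythmic expression in liver, measured 18.4, 19.9, 17.1 and 17.0 CPM in the low and 3.08, 3.65, 3.16 and 5.39 CPM in the high livers. The high livers were tightly grouped below the low ones, and Usp2 was called lower (-2.24 ± 0.21, adjusted p = 0.0215). Wee1, the kinase that holds back entry into mitosis, measured 13.1, 13.9, 11.2 and 8.51 CPM in the low and 3.97, 3.20, 2.89 and 2.43 CPM in the high livers. Its classes did not overlap and it was called lower (-1.90 ± 0.22, adjusted p = 0.0472).

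**Figure D3:**
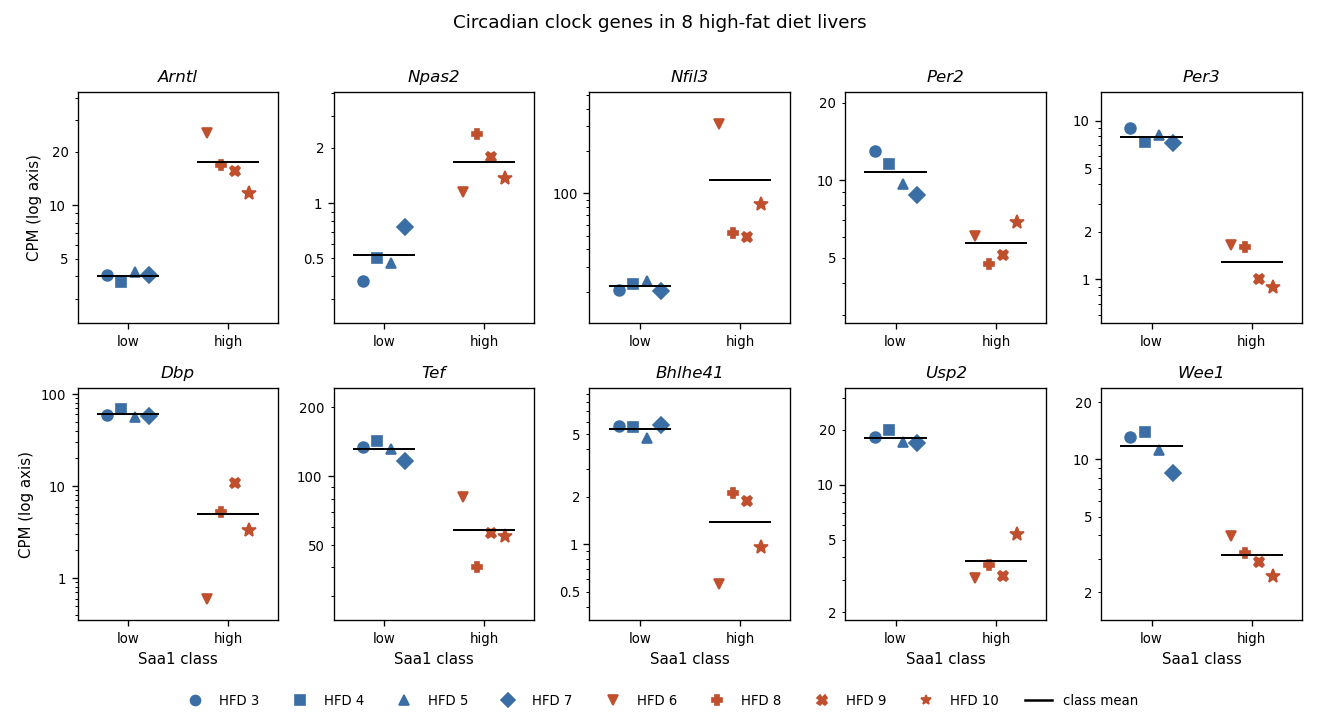
CPM of 10 clock and clock-controlled genes (y axes, logarithmic) in the low and the high Saa1 livers (x axes), 1 symbol per library, with a line at the class mean. None of the 10 overlaps between the classes: Arntl, Npas2 and Nfil3 lie above and Per2, Per3, Dbp, Tef, Bhlhe41, Usp2 and Wee1 lie below in the high livers.

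Leaving out any one of HFD 3, 4, 5, 7, 8 or 9 removed all 5 calls. Leaving out HFD 10 removed those of Wee1 and Pcsk4 (adjusted p = 0.119 for each in edgeR) and kept those of Usp2, Per3 and Arntl. With each library left out in turn the log2 difference of Per3 stayed between -2.77 and -2.49, that of Usp2 between -2.46 and -2.16, that of Arntl between 1.87 and 2.27, that of Wee1 between -2.04 and -1.80 and that of Pcsk4 between -2.72 and -2.32, while the adjusted p reached 0.159 for Per3 and Usp2, 0.287 for Arntl and Wee1 and 0.280 for Pcsk4. All 5 were kept without HFD 6, without HFD 6 and HFD 10 and with DESeq2. With library totals as the only scaling the call of Usp2 alone was kept. In the edgeR fit with log2 Saa1 as a continuous term, Per3, Wee1 and Pcsk4 were called. Usp2 (adjusted p = 0.1122) and Arntl (adjusted p = 0.1135) were not, with slopes of -0.536 and 0.5995 that kept their signs. The term holds the Saa1 values that set the classes, and nothing is read from which of the genes passed.

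Pcsk4, a proprotein convertase best known from testis, was the fifth call and measured 4.87, 5.35, 5.24 and 7.79 CPM in the low and 0.765, 1.06, 1.49 and 0.808 CPM in the high livers. All high livers were below all low ones, and the log2 difference was -2.49 ± 0.29, adjusted p = 0.0472. Below the called genes, those with the smallest p were also without overlap between the classes. Higher in the high livers but not called were Nfasc, the adhesion molecule neurofascin (1.76 ± 0.23, adjusted p = 0.0665), Ly6d, a GPI-anchored surface protein (3.42 ± 0.46, adjusted p = 0.0822), and Chka, choline kinase alpha of phosphatidylcholine synthesis (1.34 ± 0.19, adjusted p = 0.0846). Ly6d measured 1.55, 2.90, 2.27 and 5.14 CPM in the low and 44.0, 22.5, 17.5 and 43.3 CPM in the high livers. Its levels in HFD 6 and HFD 10 were about alike and above those in HFD 8 and HFD 9. Chka measured 21.1, 28.0, 24.8 and 21.8 CPM in the low and 47.4, 66.0, 51.2 and 78.5 CPM in the high livers, with HFD 10 highest. The next named was St3gal1, a sialyltransferase (0.98 ± 0.15, adjusted p = 0.11). Without HFD 6 all 4 of these genes were called higher, with adjusted p of 0.0169 for Nfasc, 0.0471 for Ly6d, 0.006 for Chka and 0.0169 for St3gal1.

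Lower in the high livers but not called was Bmf, a pro-apoptotic BH3-only protein, which measured 21.2, 21.2, 18.6 and 20.6 CPM in the low and 10.6, 6.76, 7.69 and 8.47 CPM in the high livers. Its log2 difference was -1.28 ± 0.16, adjusted p = 0.0665, and without HFD 6 it was called (-1.42 ± 0.12, adjusted p = 0.00168). Gys2, the glycogen synthase of liver, measured 232, 241, 220.1 and 189 CPM in the low and 111, 92.5, 114 and 81.7 CPM in the high livers. The high livers lay at around a factor of 2 below the low ones (log2 difference -1.14 ± 0.16, adjusted p = 0.0828), and Gys2 was called without HFD 6 (-1.20 ± 0.14, adjusted p = 0.00939). Upp2, a uridine phosphorylase of liver, measured 532, 539, 497 and 407 CPM in the low and 46.8, 135, 117 and 129.5 CPM in the high livers. Here HFD 6 was lowest and the other 3 high livers were close together (log2 difference -2.20 ± 0.32, adjusted p = 0.0985), with a call without HFD 6 (-1.96 ± 0.13, adjusted p = 0.00106). Map2k6, a kinase that activates p38, had a log2 difference of -2.05 ± 0.31, adjusted p = 0.11 and Rnf152, a ubiquitin ligase of the lysosome, -1.39 ± 0.21, adjusted p = 0.11. Tnfrsf19, a receptor of the TNF receptor family, had -1.38 ± 0.20, adjusted p = 0.0846. Without HFD 6 all 3 were called lower, with adjusted p of 0.0244 for Map2k6, 0.0363 for Rnf152 and 0.0169 for Tnfrsf19.

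In the metabolic lists no gene was called with all 8 libraries. Of 19 genes of gluconeogenesis and insulin response, 4 lay below without overlap (3.75% of all genes) and 1 above (3.49%). Igfbp2, a circulating binding protein of insulin-like growth factors, measured 628, 756, 544 and 597 CPM in the low and 202, 314, 287 and 188 CPM in the high livers, without overlap, and was called lower without HFD 6 (-1.26 ± 0.19, adjusted p = 0.0264). G6pc, the catalytic subunit of glucose 6-phosphatase, measured 127, 115, 112 and 194 CPM in the low and 1305, 254, 288 and 131 CPM in the high livers, with HFD 6 several times higher than any other liver. Pck1, the first committed enzyme of gluconeogenesis, overlapped (log2 difference 0.11 ± 0.25, adjusted p = 0.885). Igfbp1, an insulin-repressed binding protein, measured 79.7, 75.4, 68.4 and 55.7 CPM in the low and 3374, 70.2, 51.8 and 519 CPM in the high livers. HFD 6 and HFD 10 were high while HFD 8 and HFD 9 were within or below the low range.

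Of 30 genes of fatty acid oxidation, 3 lay below without overlap, beside 3.75% of all genes. Ppara, the receptor that drives the pathway, measured 133, 107, 129 and 86.9 CPM in the low and 49.7, 58.0, 67.3 and 61.8 CPM in the high livers and was called lower without HFD 6 (-0.87 ± 0.15, adjusted p = 0.0477) but not with it (-0.94 ± 0.17, adjusted p = 0.185). Cyp4a14, one of its best known targets in rodents, measured 75.1, 75.6, 57.9 and 721 CPM in the low and 835, 156, 845 and 71.8 CPM in the high livers. Its levels did not follow the classes: HFD 7 of the low livers was near HFD 6 and HFD 9, and HFD 10 was near HFD 3, 4 and 5. Fatty acid synthesis gave 1 gene below without overlap among 22 (3.75% of all genes), with Fasn (fatty acid synthase) at a log2 difference of 0.06 ± 0.22, adjusted p = 0.932 and Scd1 (the stearoyl-CoA desaturase) at 0.14 ± 0.27, adjusted p = 0.865, both with overlapping classes. Of 25 sterol synthesis genes 2 lay below without overlap, again beside 3.75% of all genes. Sqle, squalene epoxidase, measured 16.8, 8.75, 9.85 and 5.47 CPM in the low and 14.4, 4.43, 3.42 and 95.6 CPM in the high livers, where HFD 10 was the highest by far and HFD 8 and HFD 9 the lowest, and the log2 difference was 1.53 with all libraries and -0.46 without HFD 10. Stard4, which carries cholesterol between membranes, measured 82.3, 65.3, 71.5 and 58.9 CPM in the low and 21.9, 44.3, 39.7 and 50.2 CPM in the high livers, without overlap (log2 difference -0.83 ± 0.24, adjusted p = 0.434).

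Of 21 lipoprotein genes 1 lay below without overlap, beside 3.75% of all genes. Apoe, the ligand by which remnants are taken up, measured 79.5, 102, 95.6 and 107 CPM in the low and 13784, 53.1, 40.2 and 21.3 CPM in the high livers. HFD 6 was the only liver with an abundant level, and the log2 difference changed sign between all libraries (5.18 ± 2.05, adjusted p = 0.533) and the fit without HFD 6 (-1.33 ± 0.28, adjusted p = 0.114). All 8 carry the genotype label WT, which the low levels of 7 livers go against, and whether the label holds for each was not tested. Apoa1, the main protein of high-density lipoprotein, measured 9406, 11146, 9374 and 9218 CPM in the low and 1746, 5468, 6485 and 7626 CPM in the high livers, with all high livers below the low ones and HFD 6 lowest (log2 difference -0.88 ± 0.41, adjusted p = 0.57). In bile acid synthesis Cyp7a1, the rate-limiting enzyme, measured 121, 77.6, 96.1 and 54.0 CPM in the low and 1.88, 195, 114 and 31.4 CPM in the high livers, in which HFD 6 was nearly without it and HFD 8 was the highest.

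Of 24 drug-metabolising cytochromes P450 tested, 4 lay below without overlap (3.75% of all genes) and 2 above (3.49%), with a median log2 difference of -0.48. Cyp1a2, a pericentral enzyme, measured 894, 1166, 1006 and 715 CPM in the low and 526, 621, 563 and 470.5 CPM in the high livers. All high livers were below the low ones (log2 difference -0.79 ± 0.20, adjusted p = 0.369). Cyp3a13 measured 202, 219, 210.3 and 244 CPM in the low and 451, 338, 338 and 396 CPM in the high livers, was above in all high livers and was called without HFD 6 (0.71 ± 0.11, adjusted p = 0.0314). Cyp3a11, the most inducible member of its family, measured 2418, 2622, 2176 and 2152 CPM in the low and 8526, 1049.8, 1221 and 564 CPM in the high livers. HFD 6 was the highest and the other 3 high livers were the lowest, so that the direction of the difference rested on HFD 6: it was 0.28 ± 0.77, adjusted p = 0.905 with all libraries and -1.31 ± 0.24, adjusted p = 0.059 without HFD 6. Cyp2b9 had 191 counts in HFD 6 and 0 in the other 7 livers.

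Sex-biased liver genes, which follow the pattern of growth hormone secretion, gave no call. Of 24 male-biased genes 5 lay below without overlap (3.75% of all genes) and none above (3.49%), with a median log2 difference of -0.98 (-0.65 without HFD 6). Selenbp2 measured 263, 311, 326 and 81.9 CPM in the low and 0.466, 79.6, 60.9 and 13.7 CPM in the high livers. All high livers were below all low ones, HFD 8 only just below HFD 7, and HFD 6 was almost without it (log2 difference -2.67 ± 1.12, adjusted p = 0.544). Hsd3b5, a steroid dehydrogenase of male mouse liver, measured 304, 352, 342 and 221 CPM in the low and 0.261, 129, 272 and 0.898 CPM in the high livers. HFD 6 and HFD 10 were near 0, whereas HFD 9 was inside the low range (log2 difference -1.60 ± 1.51, adjusted p = 0.725). Of 23 female-biased genes 13 passed the filter on low counts, so the 3 of them that lay above (3.49% of all genes) and the 1 below (3.75%) are not a count over the whole list. Cyp17a1, a steroid hydroxylase, measured 3.05, 3.28, 3.12 and 3.74 CPM in the low and 12.1, 8.95, 7.54 and 173 CPM in the high livers, Cyp2c69 measured 0.418, 0.5002, 0.803 and 0.662 CPM in the low and 2.28, 1.60, 4.52 and 14.0 CPM in the high livers and Cyp2c40 measured 1.15, 1.65, 0.874 and 0.915 CPM in the low and 2.20, 2.62, 6.12 and 11.6 CPM in the high livers. In these 3 genes every high liver was above every low one and HFD 10 was highest, and none passed the test.

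Markers of other cells were summed per liver as CPM of library totals, without TMM factors, and their part in the results was not tested. The sums and the single genes printed beside them are therefore on different scales. In a bulk sample, fewer cells of a type and less RNA per cell cannot be told apart. The 16 neutrophil markers summed to 477 to 650 CPM in the low livers and 939 to 3565 CPM in the high livers, with none at 0 in all 8. Lcn2, also an acute phase gene of hepatocytes, made up much of this. Without it the other 15 summed to 244 to 322 CPM and 267 to 868 CPM, and the classes overlapped. S100a8, a calcium-binding protein of neutrophils, measured 6.61, 8.53, 8.50 and 11.6 CPM in the low and 31.9, 23.4, 11.7 and 162 CPM in the high livers, with HFD 9 next to HFD 7. Ngp, a protein of neutrophil granules, measured 0.126, 0.05002, 0.142 and 2.02 CPM in the low and 11.1, 13.7, 1.85 and 130.1 CPM in the high livers, where HFD 9 was below HFD 7. Neither gene was called (2.70 ± 0.76, adjusted p = 0.427 for S100a8 and 6.01 ± 1.60, adjusted p = 0.407 for Ngp).

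The 13 B and plasma cell markers summed to 33.5 to 65.2 CPM in the low livers and 16.7 to 2392 CPM in the high livers, and the high value was HFD 8 alone. Ighm, the immunoglobulin heavy constant mu, measured 11.1, 19.3, 12.5 and 20.4 CPM in the low and 3.04, 1133, 8.18 and 17.0 CPM in the high livers. Igkc, the kappa constant, measured 7.01, 12.2, 9.49 and 21.9 CPM in the low and 7.78, 779, 7.24 and 56.9 CPM in the high livers. HFD 8 stood apart in both, and the remaining high livers spread around the low ones. The 16 T and NK cell markers summed to 27.1 to 30.1 CPM and 4.15 to 76.8 CPM, again with HFD 8 the highest and HFD 6 the lowest.

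The 11 erythroid and platelet markers summed to 390 to 556 CPM in the low livers and 599 to 2415 CPM in the high livers, without overlap. The 4 globin genes lay above in all high livers, beside 3.49% of all genes. Hbb-bs, an adult beta globin, measured 173, 209, 169.7 and 285 CPM in the low and 1295, 297, 364 and 1020.0 CPM in the high livers, with HFD 6 and HFD 10 highest and HFD 8 just above HFD 7 (log2 difference 1.83 ± 0.48, adjusted p = 0.403). The 15 macrophage and Kupffer cell markers summed to 3465 to 4516 CPM and 2980 to 4134 CPM, which overlap. Clec4f, a lectin of resident Kupffer cells, measured 335, 379, 356 and 422 CPM in the low and 34.5, 325, 349.7 and 384 CPM in the high livers, and was far lower in HFD 6 than in the other 7. Stellate (539 to 705 against 403 to 671 CPM), sinusoidal endothelial (518 to 875 against 436 to 757 CPM) and cholangiocyte markers (141 to 200 against 131 to 209 CPM) overlapped as well. The 14 markers of lipid-associated macrophages (2697 to 3800.2 against 1896 to 3433 CPM) and the 6 mesothelial markers (246 to 293 against 255 to 446 CPM) overlapped too, and the 7 markers of mast cells and basophils were too low to be tested.

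The 10 monocyte markers summed to 1548 to 1879 CPM in the low livers and 1803 to 5612 CPM in the high livers, overlapping, with HFD 6 the highest. The sums of the 8 adipocyte markers did not overlap, at 2154 to 3507 CPM in the low and 27.2 to 1379 CPM in the high livers, with HFD 10 and HFD 6 the lowest. Except in HFD 6 and HFD 10, most of this sum was Car3, a carbonic anhydrase of fat that is also abundant in liver. Scaled by TMM factors, unlike the sum, Car3 measured 3289.6, 2198, 2606 and 2122 CPM in the low and 3.99, 838, 1300.2 and 12.0 CPM in the high livers (log2 difference -2.25 ± 1.40, adjusted p = 0.62). Adipoq, Retn, Lep and Plin1 were too low to be tested. Of the 4 markers tested, 1 lay above in all high livers (3.49% of all genes) and 1, Car3, below (3.75%). The median log2 difference of the 4 was 1.24, so the lower sum in the high livers reflects Car3 and not the list as a whole. On library totals the sums of the 12 pancreas and gut markers did not overlap either, at 89.2 to 137 CPM in the low and 28.5 to 88.8 CPM in the high livers. HFD 9 (88.8 CPM) lay just under HFD 3 (89.2 CPM), and their TMM factors were 1.001 and 1.061. With those factors HFD 9 would lie above HFD 3, so the lack of overlap holds for library totals only. HFD 10 and HFD 6 were again the lowest, and 7 of the 12 were at 0 in all 8.

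**Figure D4:**
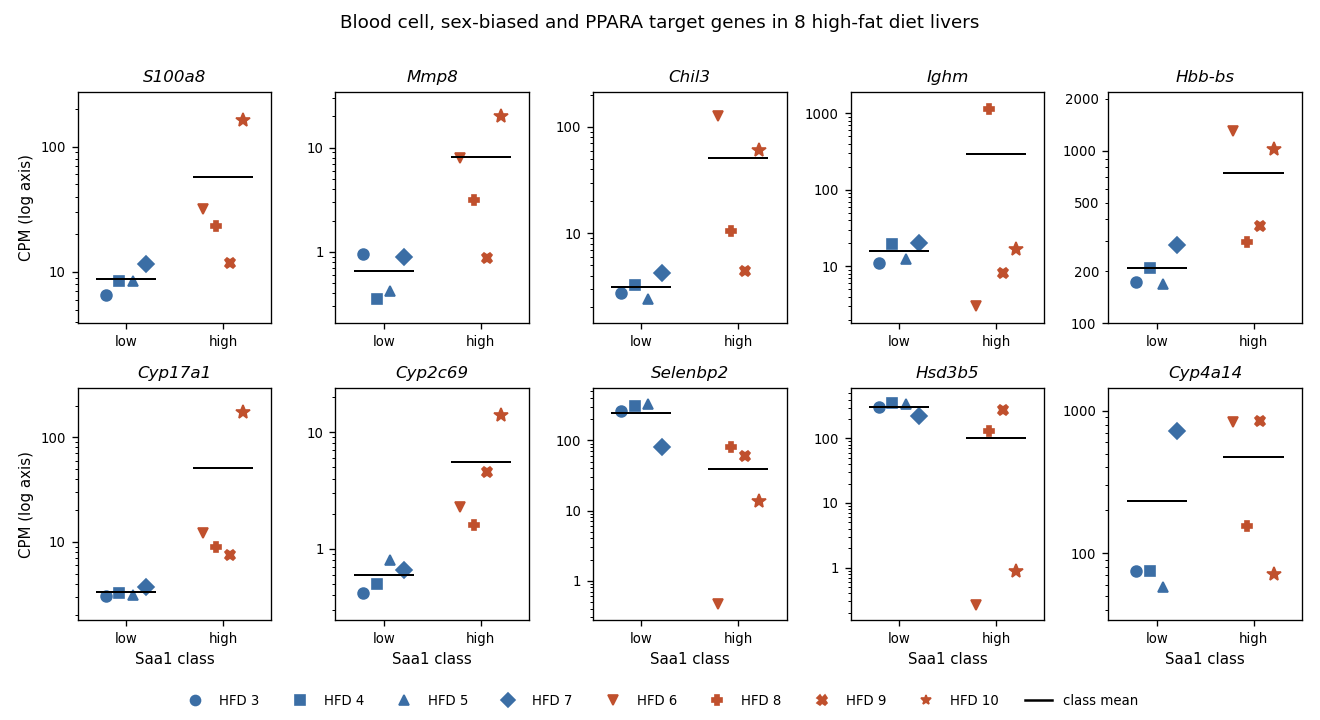
CPM of 10 blood cell, sex-biased and PPARA target genes (y axes, logarithmic) in the low and the high Saa1 livers (x axes), 1 symbol per library, with a line at the class mean. Ighm is high in HFD 8 alone, Selenbp2 and Hsd3b5 are lowest in HFD 6 and HFD 10, and Cyp4a14 is high in HFD 6, HFD 7 and HFD 9.

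Set side by side, the lists with most members without overlap were the acute phase proteins (19 of 32) and the circadian clock (13 of 25), beside 7.24% of all genes. Nothing is read from the acute phase count, since genes of that list are induced together with Saa1. Members of the lists were chosen with earlier results of these data known, so their order is a description only. Other lists above the share of all genes included erythroid and platelet markers (4 of 11), adipocyte markers (2 of 4), female-biased genes (4 of 13) and hepatocyte markers (3 of 10). Gluconeogenesis and insulin response (5 of 19), cytochromes P450 (6 of 24) and male-biased genes (5 of 24) were also above it. No list other than the circadian clock held a called gene with all 8 libraries. Interferon-stimulated genes had 2 of 30 without overlap, nuclear-encoded respiratory chain genes 1 of 35 and cytosolic ribosomal proteins 0 of 39. Cell cycle genes had 1 of 26, fibrosis and matrix genes 1 of 27, and heat shock chaperones 1 of 16.

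**Figure D5:**
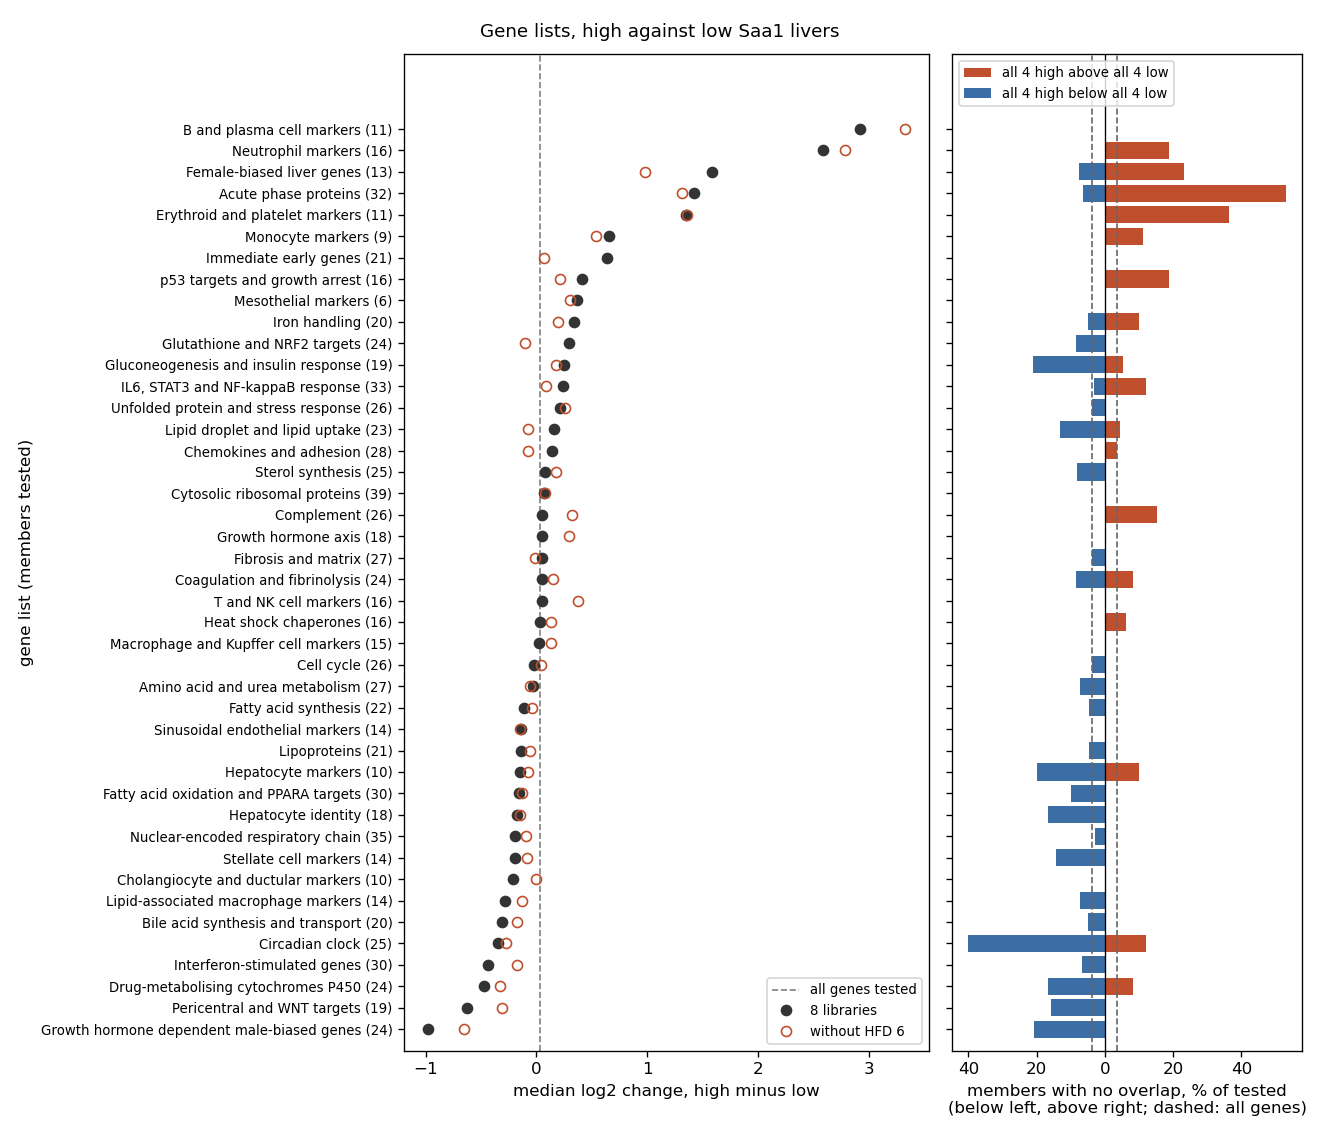
Median log2 difference, high minus low (left, x axis), and share of tested members without overlap between the classes (right, x axis, in percent) for each gene list with at least 5 tested members (y axis). Acute phase proteins have 17 members above and 2 below, circadian clock genes 3 above and 10 below, and the median of the acute phase list is 1.42 with all libraries and 1.31 without HFD 6.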

How the data were processed

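The processing named per the labels is fastp and the build mm10. What the authors deposited is 1 table of read counts, with genes as rows, and its FPKM counterpart. No source used here names the aligner, counter, annotation or strandedness. Among 55401 IDs of genes, 55141 matched GENCODE M21 (GRCm38). The members and gene lists were chosen with earlier results of these data known. Counts of the 8 libraries were filtered by filterByExpr in edgeR 4.0.16 (R 4.3.3), at a minimum count of 10 and a minimum total of 15, and scaled by TMM. The Saa1 class was the only term of a robust quasi-likelihood fit. Its two-sided F tests were adjusted by Benjamini-Hochberg over the 15175 genes tested and called under 0.05. The SE printed was derived from the test, as the absolute log2 difference divided by the square root of its F statistic. Saa1, Saa2 and Saa3 were fitted but not tested. Genes at low counts passed the filter only where enough libraries of a class had them.

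The named genes were those called that averaged 1 CPM or more, the 10 of smallest p in a direction with fewer than 5 calls, the 4 of smallest p in each of 46 lists (15 of them marker lists), and fixed liver genes; part of them is printed, and some are not reported here. Some genes named in the text are other list members, chosen after their values were seen. Single values per library were compared by two-sided exact permutation. Alternatives were other scalings, filters and tools (DESeq2 1.42.0, limma 3.58.1 voom, limma-trend on the deposited FPKM as log2(FPKM + 1)), log2 Saa1 as a continuous term, and omitted libraries. Promoter windows came from RefSeq and were read with Python 3.11.15. Tested on simulated data of the same design, 22% of 2-fold and 74% of 4-fold changes were recovered over 14986 genes with all libraries, and 63% and 79% over 15087 genes without HFD 6, and 8 of 104 and 10 of 152 calls were of unchanged genes.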

Additional observations from a re-analysis of the deposited data

Results flagged for a closer look

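In each class of 4 livers the highest and the lowest value of 102 genes were set against the gap to the next liver. Saa1, which chose the classes, and Saa2 and Saa3 were not examined in this way. Of 204 such classes, 27 held a liver far from the other 3. The genes were those printed, some of them chosen after their values were seen. The usual chance rate of about 1 in 20 therefore does not apply to this count. HFD 10 was far above the other high livers in Orm1 at 8779 CPM, Orm2 at 5324 CPM, Apcs at 3268 CPM, Lcn2 at 3389.8 CPM, Sqle at 95.6 CPM, Cyp17a1 at 173 CPM, S100a8 at 162 CPM, Camp at 17.3 CPM, Ngp at 130.1 CPM and Cxcl14 at 151 CPM. These are 10 of the 27, and they hold acute phase genes and neutrophil proteins. HFD 6 was far from the other high livers in 8 genes, which were Nfil3 at 310.5 CPM, Apoe at 13784 CPM, G6pc at 1305 CPM, Igfbp1 at 3374 CPM, Cyp3a11 at 8526 CPM, Clec4f at 34.5 CPM, Cxcl13 at 424 CPM and Lepr at 327 CPM. It was the lowest in Clec4f and the highest in the others. HFD 8 was far above the other high livers in Ighm at 1133 CPM and Igkc at 779 CPM. Among the low livers HFD 7 was far above the others in Apcs at 199.6 CPM, Hamp at 453 CPM, Pcsk4 at 7.79 CPM, Cyp4a14 at 721 CPM, Camp at 0.273 CPM and Ngp at 2.02 CPM. The remaining one was HFD 4, the highest low liver, in Apoa1 at 11146 CPM.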

How the results depend on the processing

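With all 8 libraries edgeR called 5 genes, 1 higher and 4 lower in the high livers. RLE factors gave 4 (1 and 3), upper-quartile factors 6 (1 and 5), and library totals alone 1 (0 and 1). DESeq2 gave 222 (145 and 77), limma voom 2 (0 and 2) and limma-trend on log2(FPKM + 1) 10 (2 and 8). A filter of 1 CPM in 4 libraries gave 7 (2 and 5), and log2 Saa1 as a continuous term 72 (60 and 12). Leaving out each library in turn gave 0 to 69 calls (0 to 37 higher, 0 to 32 lower), and leaving out both HFD 6 and HFD 10 gave 146 (87 and 59). Chosen after seeing the data, the fit without HFD 9 and HFD 10, the deepest libraries, gave 0 by edgeR, with 2529 genes at an unadjusted p under 0.05 (0 and 0), and thinned counts gave 3 (1 and 2). No filter, no robust estimation or no chromosome M genes gave 5 again. The cause of these shifts was not tested. Without HFD 6 and HFD 10, Apoe turned to a log2 difference of -1.05 (adjusted p = 0.0118) and Cyp3a11 to -1.05 (adjusted p = 0.00822). Some genes that were called neither with all libraries nor in the alternative changed sign as well: without HFD 6 and HFD 10 the log2 difference was -1.40 for Sqle, -1.06 for Per1 and -0.20 for Igfbp1, and that of Ighm was -0.75 without HFD 8. Hamp, Fasn, Scd1, Pck1, Cyp7a1, Gpnmb and Col1a1 also changed sign under at least 1 setting. No paired analysis was possible because the high and low livers all carry the HFD label and share no replicate number. In simulated data, where no library stood apart as HFD 6 did, 22% of 2-fold changes were recovered with all libraries and 63% without HFD 6. A difference of that size could therefore be missed.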

Other observations

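Some genes outside the groups described differed between single livers more than between the classes. Lepr, the leptin receptor, measured 9.44, 3.20, 5.10 and 8.68 CPM in the low and 327, 9.01, 11.1 and 19.4 CPM in the high livers, with HFD 6 far above all others (log2 difference 3.79 ± 1.23, adjusted p = 0.475). Cxcl13, a chemokine that attracts B cells, measured 0.753, 1.90, 1.04 and 0.467 CPM in the low and 424, 22.6, 0.333 and 14.97 CPM in the high livers. Its level in HFD 8, the liver with most immunoglobulin mRNA, was above all low livers, yet HFD 6, with little immunoglobulin mRNA, was the highest. Cxcl14, another chemokine, measured 4.18, 4.20, 4.68 and 4.87 CPM in the low and 13.5, 14.5, 8.54 and 151 CPM in the high livers, without overlap and with HFD 10 highest (log2 difference 3.39 ± 0.93, adjusted p = 0.421).

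Growth and stress genes were also uneven. Cdkn1a, the p21 inhibitor of cyclin-dependent kinases, measured 6.57, 7.25, 9.09 and 11.04 CPM in the low and 72.2, 19.1, 12.2 and 43.7 CPM in the high livers, without overlap (log2 difference 2.12 ± 0.52, adjusted p = 0.36). Tk1, the thymidine kinase of DNA synthesis, measured 16.5, 20.9, 19.3 and 18.5 CPM in the low and 2.13, 10.0, 10.5 and 8.52 CPM in the high livers, below in every high liver, and was called lower without HFD 6 (-0.96 ± 0.13, adjusted p = 0.0169). Creld2, a chaperone of the endoplasmic reticulum, measured 26.8, 31.1, 35.4 and 40.4 CPM in the low and 28.2, 67.7, 57.5 and 54.8 CPM in the high livers. HFD 6 was inside the low range, and Creld2 was called higher without it (0.84 ± 0.14, adjusted p = 0.0444). Gpnmb, a marker of lipid-laden macrophages, measured 192, 149, 169 and 386 CPM in the low and 19.2, 164, 332 and 13.4 CPM in the high livers, with HFD 6 and HFD 10 far below the others (log2 difference -0.76 ± 0.91, adjusted p = 0.773). Trib3, a pseudokinase of the stress response, measured 12.5, 18.03, 17.4 and 14.9 CPM in the low and 9.85, 5.43, 10.2 and 4.43 CPM in the high livers, below in all high livers (log2 difference -1.07 ± 0.29, adjusted p = 0.421). Col1a1, the collagen I alpha 1 chain, measured 25.9, 16.5, 14.9 and 12.0 CPM in the low and 4.74, 25.3, 10.5 and 14.2 CPM in the high livers, with overlapping classes (log2 difference -0.34 ± 0.46, adjusted p = 0.793).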
